A study of Mus musculus with 34 samples.

Results

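ATF3 and Fos were compared by where each protein was bound in macrophages 1 h after KLA. The 36745 ATF3 peaks and the 24365 Fos peaks of C57BL/6 macrophages were joined wherever they overlapped by at least 1 bp, which gave 39500 loci. Of these, 21576 (54.6%) held peaks of both proteins and are called shared, 15143 (38.3%) held an ATF3 peak alone (ATF3-only) and 2781 (7.04%) held a Fos peak alone (Fos-only). For scale, the 6 AP-1 proteins with lists after KLA (ATF3, Fos, FosL2, Jun, JunB and JunD) covered 43239 loci when all of their peaks were joined. Only the positions of the ATF3 and Fos peaks decided the class of a locus, so class sizes and peak strengths are given as descriptions. Partner peaks, motifs, genes and the lists of a second strain took no part in that choice.

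The cells were TGEMs, wild-type macrophages that enter the peritoneum of male mice after an injection of thioglycollate, here from mice aged 8 weeks. KLA, a pure form of the lipid A of bacterial endotoxin and a TLR4 agonist, was given at 100 ng/mL for 1 h, and Veh stands for vehicle. The sample labels name the strain C57Bl/6EiJ and the study's methods name it C57BL/6J, and the second strain is BALB/cJ. In ChIP-seq, an antibody pulls down DNA that a protein is bound to, and the sequenced fragments form peaks. The deposited lists hold peaks that recurred among replicates, 1 list a condition, so no test between replicates could be run. Each percentage below therefore carries a 95% Wilson interval and each difference a 95% interval by Newcombe's method. These intervals count loci, which are not replicates, and leave out the variation between mice. Macrophage genes lay near the loci: of 20 macrophage lineage genes, 19 were the nearest gene of at least 1 shared locus, against 30.9% of all 21911 protein-coding genes. Spi1, which encodes PU.1, had 8 shared loci, Csf1r, the receptor of a macrophage growth factor, had 9, and Myd88, a TLR adaptor, had none in any class.

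AP-1 proteins bind DNA as dimers through a leucine zipper. Fos proteins do not pair with each other and take a Jun protein as partner, and their dimers bind the TRE. ATF3 can pair with itself, with Jun proteins and with CEBP proteins, and dimers of the ATF kind also bind the longer CRE or a composite of a CEBP site and an ATF site. In macrophages, PU.1 and CEBPα are lineage factors that open many of the enhancers at which AP-1 proteins are found. Fos is an immediate-early gene that stimulated cells switch on within minutes, and ATF3 is a stress-induced factor.

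The sequences below show what the classes looked like at single loci. The first group gives the strongest loci that were bound by ATF3 alone in both strains, the second group the strongest that were bound by Fos alone in both strains, and the third group the strongest shared loci. Each is the central 200 bp on the plus strand of the RefSeq GRCm38 genome, with matches to the TRE (TGACTCA), the CRE (TGACGTCA), the CEBP-ATF composite (TGATGCAA), the CEBP site (TTGCNCAA), the PU.1 site (ACTTCCT) and the NFκB site (GGGANTTTC) in capitals on either strand.
Mtpn, ATF3-only, chr6:35542639-35542838: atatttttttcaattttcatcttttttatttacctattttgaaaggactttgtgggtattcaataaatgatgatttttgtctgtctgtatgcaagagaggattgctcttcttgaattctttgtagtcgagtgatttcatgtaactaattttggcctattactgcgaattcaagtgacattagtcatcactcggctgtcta
Tnfrsf1b, ATF3-only, chr4:145267599-145267798: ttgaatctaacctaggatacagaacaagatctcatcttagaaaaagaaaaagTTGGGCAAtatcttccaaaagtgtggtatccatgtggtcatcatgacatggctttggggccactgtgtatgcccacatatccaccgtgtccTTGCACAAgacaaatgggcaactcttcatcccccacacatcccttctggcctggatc
Tpd52, ATF3-only, chr3:9020227-9020426: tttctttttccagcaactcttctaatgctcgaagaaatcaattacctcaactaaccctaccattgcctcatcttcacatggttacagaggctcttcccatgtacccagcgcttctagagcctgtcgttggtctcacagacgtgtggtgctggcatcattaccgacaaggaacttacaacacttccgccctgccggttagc
Marcks, Fos-only, chr10:37338279-37338478: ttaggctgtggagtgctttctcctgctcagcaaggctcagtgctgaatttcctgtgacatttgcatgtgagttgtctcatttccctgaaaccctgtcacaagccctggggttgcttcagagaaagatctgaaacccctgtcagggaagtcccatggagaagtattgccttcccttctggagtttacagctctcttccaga
Itga4, Fos-only, chr2:79255020-79255219: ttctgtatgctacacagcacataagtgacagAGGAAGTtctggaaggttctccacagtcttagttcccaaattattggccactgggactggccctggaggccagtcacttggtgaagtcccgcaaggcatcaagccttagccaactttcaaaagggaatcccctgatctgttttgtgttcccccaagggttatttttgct
Gatad2a, Fos-only, chr8:69996359-69996558: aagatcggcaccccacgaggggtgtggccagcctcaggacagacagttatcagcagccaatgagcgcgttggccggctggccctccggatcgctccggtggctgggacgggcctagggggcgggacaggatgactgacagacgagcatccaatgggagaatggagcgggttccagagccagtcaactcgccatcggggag
Tax1bp1, shared, chr6:52825565-52825764: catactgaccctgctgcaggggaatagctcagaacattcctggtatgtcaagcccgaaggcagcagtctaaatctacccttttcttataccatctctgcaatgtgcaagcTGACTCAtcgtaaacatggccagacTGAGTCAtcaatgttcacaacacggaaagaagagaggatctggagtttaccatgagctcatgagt
Pfkfb3, shared, chr2:11429706-11429905: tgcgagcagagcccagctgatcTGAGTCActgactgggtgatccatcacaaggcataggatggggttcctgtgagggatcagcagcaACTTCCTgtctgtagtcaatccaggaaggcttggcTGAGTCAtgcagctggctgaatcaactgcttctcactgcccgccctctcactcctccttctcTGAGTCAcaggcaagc
The 2 strongest shared loci held 2 and 3 TREs, whereas none of the 6 loci bound by 1 protein in both strains held a TRE, a CRE or a composite. To show those motifs, the strongest locus that kept its class in both strains and held each of them was added after the values were seen, with the Btg2 promoter as an ATF3-only promoter with a CRE. The Btg2 locus held both ATF3 and Fos peaks in BALB/cJ.
Klrb1c, ATF3-only, CRE, chr6:128799503-128799702: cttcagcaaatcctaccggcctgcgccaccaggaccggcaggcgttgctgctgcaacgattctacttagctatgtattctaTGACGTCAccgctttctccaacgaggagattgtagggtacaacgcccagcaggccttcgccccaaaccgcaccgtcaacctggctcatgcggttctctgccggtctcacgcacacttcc
Slc39a11, ATF3-only, composite, chr11:113569622-113569821: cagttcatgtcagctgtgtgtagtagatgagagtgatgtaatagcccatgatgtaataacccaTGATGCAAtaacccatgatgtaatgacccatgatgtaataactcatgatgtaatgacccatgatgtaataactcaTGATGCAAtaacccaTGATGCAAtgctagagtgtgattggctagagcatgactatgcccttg
Runx1, Fos-only, TRE, chr16:92842266-92842465: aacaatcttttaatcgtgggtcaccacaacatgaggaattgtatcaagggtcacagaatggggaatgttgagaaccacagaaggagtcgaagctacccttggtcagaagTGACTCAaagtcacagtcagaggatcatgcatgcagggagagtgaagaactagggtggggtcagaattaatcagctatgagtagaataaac
Btg2, ATF3-only promoter, CRE, chr1:134079213-134079412: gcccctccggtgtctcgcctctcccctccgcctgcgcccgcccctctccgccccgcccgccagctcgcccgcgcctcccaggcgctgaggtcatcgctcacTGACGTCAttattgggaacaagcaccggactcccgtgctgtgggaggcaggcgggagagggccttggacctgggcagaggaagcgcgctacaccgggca

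The locus near Mtpn (chr6:35542559-35542920) had an ATF3 count of 302, at percentile 98.5 of the ATF3 list, and the locus near Tnfrsf1b, which encodes a TNF receptor, had 266, at percentile 97.2. The locus near Tpd52 had 235, at percentile 95.4. All 3 also held CEBPα, Jun and ATF3 Veh peaks. The Fos-only loci that recurred were weaker: 113 at the locus assigned to Marcks, 105 at the promoter of Itga4, which encodes an integrin chain, and 100 at the promoter of Gatad2a, at percentiles 89.5, 87.2 and 85.6 of the Fos list. The first of these lay at -199459 bp from the TSS of Marcks and within 1 kb of another TSS. The Itga4 locus (chr2:79254989-79255251) held JunB, JunD and FosL2 peaks, and the Gatad2a locus (chr8:69996358-69996561) held no partner peak apart from BALB/cJ Fos. The strongest shared locus, in an intron 111315 bp from the TSS of Tax1bp1 (the transcription start site), had an ATF3 count of 461 and a Fos count of 284, with peaks of every partner examined.

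Loci of 1 protein had weaker peaks than shared loci. ATF3-only loci had a median ATF3 count of 52, at percentile 26.2 of the ATF3 list, whereas shared loci had 103, at percentile 67.8. Fos-only loci had a median Fos count of 32 and shared loci 55, at percentiles 16.0 and 55.3. In the weakest decile of the ATF3 list, 14.4% of the peaks overlapped a Fos peak (95% interval 13.3 to 15.5), and in the strongest decile 98.0% did (97.5 to 98.4). The share of Fos peaks at an ATF3 peak went from 62.0% (60.1 to 63.9) in the weakest decile to 99.6% (99.3 to 99.8) in the strongest. The Fos list is shorter and its counts are smaller, with a sum of 1535886 against 3537782 for ATF3, and the depth of the libraries is not in the lists, so that fewer binding sites and fewer reads for Fos cannot be told apart.

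**Figure D1:**
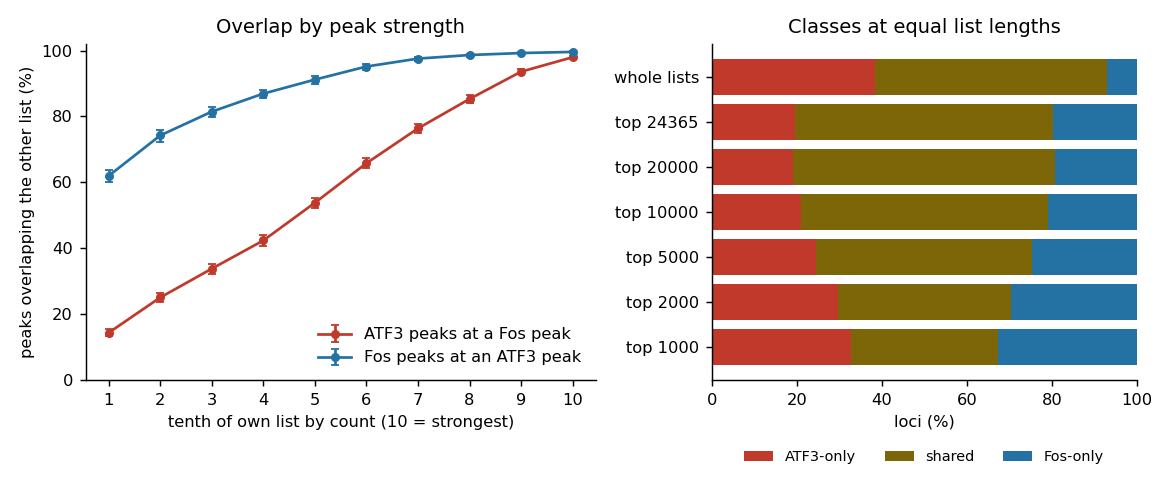
Left, share of the peaks of each list (%) that overlapped a peak of the other list, by decile of the own list by count, with 95% Wilson intervals: it reaches 98.0% for ATF3 and 99.6% for Fos in the strongest decile. Right, share of loci (%) that were ATF3-only, shared or Fos-only for whole lists and for lists cut to the same number of strongest peaks.

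Cutting the lists to equal length makes the numbers of ATF3-only and Fos-only loci nearly equal by construction. When the ATF3 list was reduced to its 24365 strongest peaks, a cut at a count of 58, there were 18380 shared, 5971 ATF3-only and 5977 Fos-only loci, and 75.5% of the peaks of either list overlapped the other. Of the 5977 Fos-only loci, 3196 lay on an ATF3 peak below the cut and 2781 on none. With the 10000 strongest peaks of each list, 7350 loci were shared, 2648 were ATF3-only and 2649 were Fos-only. With the 1000 strongest, 514 were shared and 486 belonged to each protein alone. Hardly any of the latter lacked the other protein: 10 of the 1000 strongest ATF3 peaks had no peak in the whole Fos list, and 4 of the 1000 strongest Fos peaks had none in the whole ATF3 list. The strongest peaks of the lists therefore differed in rank far more often than in presence.

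Most of the strongest loci of 1 protein held peaks of other AP-1 proteins. The strongest ATF3-only locus, upstream of Itga5, an integrin of the fibronectin receptor (chr15:103370448-103370758), had an ATF3 count of 471 and held Jun, JunB, JunD, FosL2, PU.1 and CEBPα peaks and a TRE. It had neither an ATF3 nor a Fos peak in BALB/cJ. The next was on an unplaced contig, with a count of 365 and a PU.1 peak as its only partner, and the fifth, near Muc3, had 302 and ATF3 Veh as its only partner. Those nearest to Cubn and Il2 had counts of 315 and 314, and both held Fos peaks in BALB/cJ. The strongest Fos-only locus lay at -10411 bp from the TSS of Il1a, an early inflammatory cytokine (chr2:129320277-129320490), with a Fos count of 229, at percentile 99.7. It held peaks of Jun, JunB, JunD, FosL2, PU.1 and CEBPα and, in BALB/cJ, of ATF3 as well. The Fos-only loci in an intron of App and upstream of Chst11 had counts of 208 and 155, and both held ATF3 Veh peaks and BALB/cJ ATF3 peaks. The locus near Cd47, a signal against phagocytosis, had 152 and held neither an ATF3 Veh peak nor a BALB/cJ ATF3 peak after KLA. The ATF3 Veh list of BALB/cJ was not examined. All 5 of the strongest Fos-only loci held a TRE and peaks of the 3 Jun proteins.

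Jun-family partners were more frequent at shared loci than at loci of 1 protein. Of all 43239 AP-1 loci, which the Jun-family lists themselves helped to define, 76.9% held a peak of Jun, JunB or JunD. Such a peak lay on 94.5% of shared loci (94.2 to 94.8), 53.7% of ATF3-only loci (52.9 to 54.5) and 48.3% of Fos-only loci (46.5 to 50.2). The gap narrowed with peak strength: in the weakest decile of the ATF3 list 55.2% of shared and 25.5% of ATF3-only loci held one, and in the strongest 99.9% and 94.6%. All 3 Jun proteins were found at 44.2% of shared loci, at 2.17% of ATF3-only loci and at 2.70% of Fos-only loci. JunD was the most frequent of the 3 and the only Jun protein at 32.9% of ATF3-only, 28.8% of Fos-only and 19.1% of shared loci. The JunD list was also the longest, with 31640 peaks against 17480 for Jun and 13375 for JunB. The part of list length in the JunD shares was not tested. The 7008 ATF3-only loci and 1437 Fos-only loci without any Jun-family peak made up 46.3% and 51.7% of their classes. A peak missing from a list does not show that the protein was absent.

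Between ATF3-only and Fos-only loci, Jun and JunB differed in opposite directions. Jun lay on 16.98% of ATF3-only and 11.6% of Fos-only loci, a difference of 5.37 percentage points (3.99 to 6.66). JunB lay on 6.23% of ATF3-only and 11.3% of Fos-only loci, a difference of -5.06 points (-6.34 to -3.87). The JunB difference was -3.75 points at equal list length (-4.95 to -2.56), -7.02 within deciles of peak rank and -3.63 (-4.61 to -2.64) when classes and JunB peaks both came from BALB/cJ. It depended on the JunB list when rank was not matched. BALB/cJ JunB peaks lay on 24.5% of the ATF3-only and 20.8% of the Fos-only loci of C57BL/6. That difference of 3.68 points (1.99 to 5.30) was in the other direction. With the BALB/cJ JunB peaks it was 12.4 at equal length (10.7 to 14.0) and -1.83 within deciles of rank. The Jun difference was 17.2 points at equal length (15.7 to 18.7), 0.143 within deciles of rank and 0.741 in BALB/cJ (0.0808 to 1.42). FosL2, the other Fos protein with a list, lay on 6.06% of ATF3-only, 7.88% of Fos-only and 41.6% of shared loci. The headers of the study's source data give the Fos and JunB libraries the same dates and the ATF3 libraries other dates, and the part of these dates in the JunB difference was not tested. The Jun family as a whole gave no stable direction: 5.39 points (3.37 to 7.41) on whole lists, 14.6 at equal length, but -2.93 within deciles of rank and -3.42 (-4.92 to -1.91) in BALB/cJ.

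CEBPα lay more often on ATF3-only than on Fos-only loci. CEBPα KLA peaks lay on 20.9% of ATF3-only loci (20.2 to 21.5), on 9.57% of Fos-only loci (8.53 to 10.7) and on 39.4% of shared loci, beside 28.7% of all AP-1 loci. The difference of 11.3 points (9.97 to 12.5) was 18.5 points at equal length (17.02 to 19.87) and 8.05 within deciles of rank, and it kept its sign in BALB/cJ at 1.85 points (0.849 to 2.87), where CEBPα was still that of C57BL/6. In the strongest decile of the ATF3 list, 67.6% of the 74 ATF3-only loci held a CEBPα peak, and 69.2% of the 3598 shared loci did. Among Fos-only loci the share stayed low, from 6.99% in the weakest decile to 18.8% in the seventh and eighth, which held 64 and 32 loci. Of the ATF3-only loci, 11.1% held CEBPα without PU.1, and 4.32% of Fos-only loci did.

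PU.1 did not separate the classes in a stable way. PU.1 KLA peaks lay on 39.8% of ATF3-only loci (39.0 to 40.5), 37.0% of Fos-only loci (35.3 to 38.9) and 63.1% of shared loci (62.4 to 63.7), beside 52.2% of all AP-1 loci. The difference of 2.72 points (0.753 to 4.66) was 4.63 points at equal length (2.85 to 6.40) and 0.553 within deciles of rank. In BALB/cJ it turned to -4.87 (-6.32 to -3.41). PU.1 peaks that were absent with Veh lay on 9.55% of ATF3-only and 12.2% of Fos-only loci, a difference of -2.68 points (-4.03 to -1.42) that was -0.859 (-2.01 to 0.294) at equal length. A locus with neither PU.1 nor CEBPα was the commonest kind in both the Fos-only and the ATF3-only class, at 58.7% and 49.2% of loci, against 26.0% of shared loci.

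**Figure D2:**
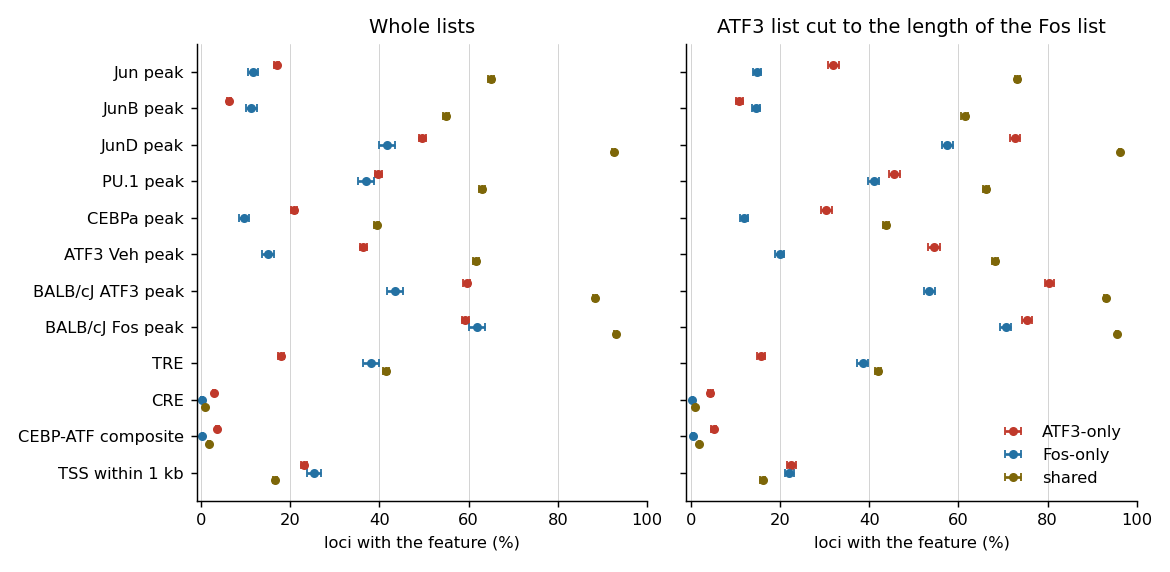
Share of loci (%) with each partner peak, motif or TSS for ATF3-only, Fos-only and shared loci, with 95% Wilson intervals, on whole lists (left) and with the ATF3 list cut to the length of the Fos list (right). Shared loci had the most partner peaks. On whole lists, the ATF3-only and Fos-only points are farthest apart at the TRE (17.9% and 38.0%) and at ATF3 Veh peaks (36.4% and 15.0%). At equal length they are farthest apart at ATF3 Veh peaks (54.5% and 19.9%) and at BALB/cJ ATF3 peaks (80.4% and 53.4%).

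ATF3 Veh peaks lay more often on ATF3-only than on Fos-only loci, though below their share of all AP-1 loci. ATF3 Veh peaks lay on 36.4% of ATF3-only loci (35.6 to 37.2), on 15.0% of Fos-only loci (13.8 to 16.4) and on 61.7% of shared loci, beside 46.2% of all AP-1 loci. The difference of 21.4 points (19.8 to 22.9) was 34.6 points at equal length and 15.1 within deciles of rank. Jun Veh and JunD Veh peaks also lay more often on ATF3-only than on Fos-only loci, by 9.04 points (7.66 to 10.3) and 8.63 points (7.03 to 10.2). The 1804 Fos Veh peaks lay on 0.925% of ATF3-only loci and 7.19% of Fos-only loci. ATF3 Veh and Fos Veh share their antibody with the lists that set the classes, so these values are not independent of the classes.

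The TRE was less frequent in ATF3-only than in Fos-only loci. The TRE was found in 41.4% of shared loci, 38.0% of Fos-only loci (36.2 to 39.8) and 17.9% of ATF3-only loci (17.3 to 18.6), against 3.10% of all 13237130 tiles of 200 bp in the genome. The difference between ATF3-only and Fos-only loci was -20.1 points (-22.0 to -18.2) on whole lists, -22.8 at equal length, -19.4 within deciles of rank and -10.6 (-11.8 to -9.39) in BALB/cJ. The share in ATF3-only loci was 19.8% in the weakest decile 10.8% in the eighth and 23.6% (15.3 to 34.6) in the strongest, which held 72 loci with sequence. In shared loci ordered by Fos count it went from 26.2% in the weakest decile to 65.1% in the strongest.

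The CRE and the CEBP-ATF composite showed the opposite order. The CRE was found in 2.91% of ATF3-only loci (2.66 to 3.19), 0.216% of Fos-only loci (0.0989 to 0.470) and 0.862% of shared loci, and in 0.105% of tiles. The composite was found in 3.65% of ATF3-only loci (3.37 to 3.96), 0.252% of Fos-only loci (0.122 to 0.519) and 1.74% of shared loci, and in 0.632% of tiles. These are 6 and 7 of the 2781 Fos-only loci. The differences of 2.70 points (2.34 to 3.00) and 3.40 points (3.01 to 3.74) were 4.70 (4.16 to 5.28) and 3.20 (2.69 to 3.75) in BALB/cJ. The composite and CEBPα met at the same loci: it was in 9.34% of ATF3-only loci with a CEBPα peak and in 2.15% without one, a difference of 7.19 points (6.18 to 8.28). Of ATF3-only loci, 76.0% held no TRE, CRE or composite in these exact letters, as did 61.6% of Fos-only and 56.7% of shared loci.

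Other motifs differed by a few points at most. The CEBP site was in 5.36% of ATF3-only, 3.63% of Fos-only and 6.51% of shared loci (1.91% of tiles), and the IRF site (GAAANNGAA) was in 9.80%, 6.62% and 8.54% (7.98% of tiles). The IRF difference of 3.18 points (2.09 to 4.17) was larger than that of the CRE, and it was -0.619 (-1.42 to 0.204) in BALB/cJ. The Sp1 site (CCCCGCCC) was in 3.83% of ATF3-only and 5.00% of Fos-only loci, a difference of -1.17 points (-2.09 to -0.353), and was in 0.541% of tiles. The NFκB site was in 1.61% of ATF3-only and 2.41% of Fos-only loci, a difference of -0.804 points (-1.47 to -0.254), with 0.702% of tiles. The intervals of the differences in the PU.1 site, the Runx site (TGTGGTT) and the E-box (TCACGTG), at 0.709, -0.816 and 0.327 points, ran on both sides of 0. These sites were in 4.79%, 4.67% and 0.787% of tiles.

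**Figure D3:**
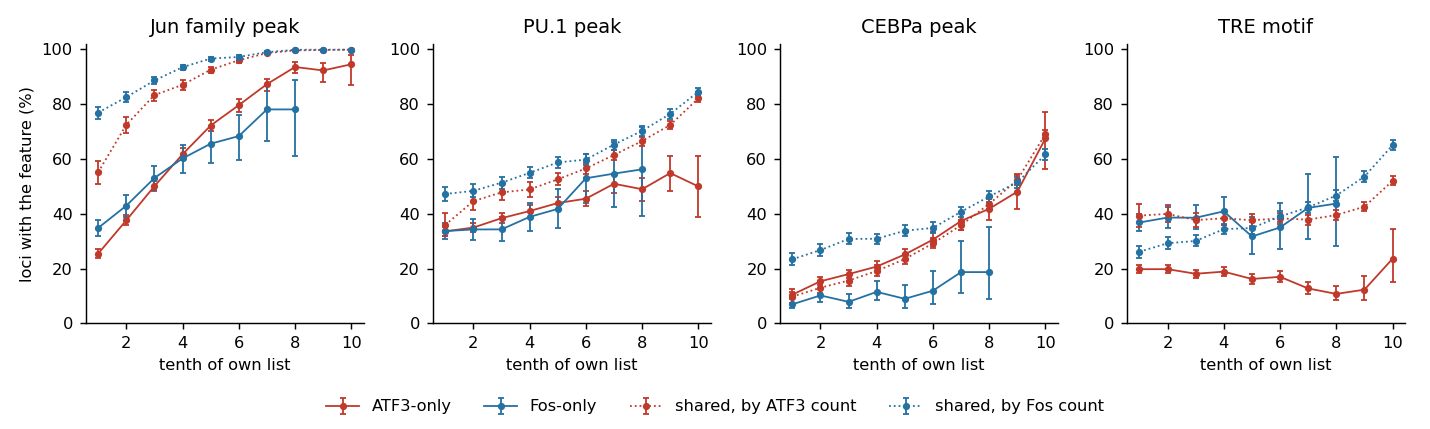
Share of loci (%) with a Jun-family, PU.1 or CEBPα peak or a TRE by decile of the own list by count (10 is the strongest), with 95% Wilson intervals, for ATF3-only and Fos-only loci (solid) and for shared loci (dotted) ordered by either count. Deciles with under 20 loci are left out. Partner peaks were more frequent in stronger deciles of all classes, and the TRE share of ATF3-only loci was 19.8% in the weakest decile, 10.8% in the eighth and 23.6% in the strongest.

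Loci of 1 protein lay nearer to promoters than shared loci. A TSS lay within 1 kb of the centre of 23.2% of ATF3-only loci (22.5 to 23.9), 25.2% of Fos-only loci (23.7 to 26.9) and 16.6% of shared loci (16.1 to 17.1), beside 21.5% of all AP-1 loci. Introns held 45.0% of ATF3-only, 39.9% of Fos-only and 46.4% of shared loci, and intergenic sequence held 27.9%, 31.5% and 33.5%. The median distance to a TSS was 5587 bp for ATF3-only, 5101 bp for Fos-only and 6836 bp for shared loci. The promoter difference between ATF3-only and Fos-only loci, -2.06 points (-3.84 to -0.344), was 0.391 at equal length (-1.10 to 1.88) and 1.70 in BALB/cJ (0.282 to 3.12), so it had no stable sign. The median GC content of the central 200 bp was 46.0% in ATF3-only, 50.5% in Fos-only and 48.0% in shared loci. On the X chromosome lay 2.29% of ATF3-only, 1.08% of Fos-only and 1.14% of shared loci.

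The motifs at promoters differed between the classes. The CRE was in 7.92% of the 3510 ATF3-only promoter loci and in 1.40% of the other ATF3-only loci, a difference of 6.52 points (5.64 to 7.48), and in 0.285% of the 702 Fos-only promoter loci. The TRE was in 10.2% of ATF3-only, 23.1% of Fos-only and 36.2% of shared promoter loci. A Jun-family peak lay on 61.0% of ATF3-only promoter loci and on 51.5% of other ATF3-only loci, a difference of 9.51 points (7.65 to 11.4). In the Fos-only class the same shares were 46.7% and 48.9%, with an interval of the difference from -6.39 to 2.13 points.

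Genes with a locus of 1 protein often had a shared locus too. ATF3-only loci were nearest to 6882 protein-coding genes (31.4% of 21911), Fos-only loci to 2187 (9.98%) and shared loci to 6767 (30.9%). Of the genes with a Fos-only locus, 74.2% also had a shared locus, 67.9% an ATF3-only locus and 16.2% neither. Of the genes with an ATF3-only locus, 62.8% had a shared and 21.6% a Fos-only locus. The median distance from a Fos-only locus to the nearest ATF3 peak was 4369 bp, and 10.6% of Fos-only loci had one within 500 bp. The median from an ATF3-only locus to the nearest Fos peak was 7953 bp.

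The genes with the most loci of 1 protein also had many shared loci. Zeb2, a zinc finger repressor, was nearest to 41 ATF3-only, 8 Fos-only and 47 shared loci. Lpp had 35 ATF3-only, 4 Fos-only and 48 shared loci, and Klf6, an immediate-early zinc finger gene, had 24, 3 and 53. Dock10, a guanine exchange factor, had 24 ATF3-only, 2 Fos-only and 29 shared loci. Cited2, a transcriptional coregulator, had 22 ATF3-only and 29 shared loci and no Fos-only locus. Etv6, an ETS repressor, had the most Fos-only loci, 9 beside 13 ATF3-only and 19 shared loci. Gadd45g, a stress gene, had 6 Fos-only and 2 ATF3-only loci, and Gse1 had 6 and 3. Prdm1, which encodes the repressor Blimp-1, had 6 Fos-only and 20 ATF3-only loci.

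Genes of the AP-1 and CEBP families were themselves bound. Of 19 such genes, 17 had a shared, 14 an ATF3-only and 9 a Fos-only locus (89.5%, 73.7% and 47.4%, beside 30.9%, 31.4% and 9.98% of all genes), and 29.6% of the 186 loci nearest to them were ATF3-only against 38.3% of all loci. Atf3 had 15 shared loci, with counts of 247 for ATF3 and 81 for Fos at its promoter, and Fos had 22 shared loci and no locus at its promoter. Jun had 12 ATF3-only, 2 Fos-only and 9 shared loci, and its promoter (chr4:95052149-95052373, at -39 bp from the TSS) was ATF3-only with a count of 173, at percentile 88.0. Peaks of Jun, JunB, JunD and PU.1 lay on it, and in BALB/cJ both ATF3 and Fos peaks did. The promoters of Fosb, Fosl1 and Cebpa also held ATF3-only loci, with counts of 82, 45 and 54, and Jdp2 held 2, with 60 and 88. Those of Fosl1 and Jdp2 held a shared locus too. In BALB/cJ, Fos peaks lay on the ATF3-only promoter loci of Fosb, Cebpa and Jdp2, and not on that of Fosl1. The Atf2 promoter held a Fos-only locus with a count of 33. Cebpb, the CEBP gene induced in inflammation, had 22 shared, 5 ATF3-only and 2 Fos-only loci.

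Some integrated stress response genes were bound at their promoters by ATF3 alone. Of 20 integrated stress response genes, 13 (65.0%) had a shared, 10 (50.0%) an ATF3-only and 2 (10.0%) a Fos-only locus, beside 30.9%, 31.4% and 9.98% of all genes. Of the loci nearest to them, 31.0% were ATF3-only, below the 38.3% of all loci. Trib3, a pseudokinase, was bound at its promoter by ATF3 alone with a count of 131, at percentile 78.4 and at -24 bp from the TSS. Chac1, which degrades glutathione, was bound by ATF3 alone with a count of 92 at -168 bp, at a locus with a CEBP-ATF composite and a CEBPα peak. Both promoters were ATF3-only in BALB/cJ too. Ddit3, which encodes CHOP, had a shared promoter locus with counts of 177 and 154, and Slc7a11, a cystine transporter, had one with 275 for ATF3 and 70 for Fos. Atf4 had 2 Fos-only loci at its promoter, with counts of 29 and 31, at percentiles 9.2 and 13.7 of the Fos list. The locus with 31, at 780 bp from the TSS, held an ATF3 Veh peak and, in BALB/cJ, an ATF3 peak. The locus with 29 held neither.

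Cytokine genes were mostly bound by both proteins. Of 29 cytokine and chemokine genes, 27 had a shared, 21 an ATF3-only and 10 a Fos-only locus (93.1%, 72.4% and 34.5%, beside 30.9%, 31.4% and 9.98% of all genes), and 68.4% of the 215 loci nearest to them were shared. The Il1b promoter was shared with counts of 277 for ATF3 and 155 for Fos, and the Il6 promoter with 171 and 40. Tnf held a shared locus at -61 bp from its TSS with counts of 192 and 68, an ATF3-only locus 367 bp after the TSS with 105, and a Fos-only locus 1274 bp after it with 55. The promoters of Il12b and Ifnb1 were ATF3-only, with counts of 66 and 94. In BALB/cJ the Ifnb1 locus held a Fos peak as well, and the Il12b locus did not. Il12b had 8 ATF3-only, 1 Fos-only and 4 shared loci, and its strongest locus, at -9863 bp, was shared with counts of 348 and 85. Il1a had 10 shared, 3 ATF3-only and 2 Fos-only loci.

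In the other gene lists, shared loci were also the largest class. Shared loci made up 62.2% of the loci of 20 immediate-early genes, 64.2% of those of 20 NFκB genes, 68.3% of those of 19 interferon response genes, 58.9% of those of 20 cholesterol and lipid genes and 59.9% of those of 20 macrophage lineage genes, against 54.6% of all loci. ATF3-only loci made up 32.3%, 30.3%, 26.8%, 36.9% and 32.8%, and Fos-only loci 5.56%, 5.47%, 4.88%, 4.26% and 7.33%, against 38.3% and 7.04% of all loci. Among immediate-early genes, the Btg2 promoter was ATF3-only with a count of 167, at percentile 87.0, and the promoters of Ier5, Srf, Nr4a1 and Dusp1 held Fos-only loci with counts of 41, 37, 35 and 29. Dusp1 had a shared promoter locus too. In BALB/cJ the Btg2 locus held a Fos peak as well, and all of these Fos-only loci held ATF3 peaks. Among NFκB genes, Nfkbiz, Nfkbid, Rel and Tnip1 had ATF3-only promoter loci with counts of 113, 92, 75 and 51. In BALB/cJ, Fos peaks lay on all of these loci. Nfkbiz, Nfkbid and Tnip1 had shared promoter loci too. A shared promoter locus was found at 16 of the 19 NFκB genes with a locus. Among lipid genes, the promoters of Nr1h2 and of Nr1h3, which encode sterol sensors, were ATF3-only with counts of 73 and 46, and that of Pparg held an ATF3-only locus with 64 beside a shared one. In BALB/cJ, Fos peaks lay on the Nr1h3 locus and on the ATF3-only locus of Pparg, but not on that of Nr1h2. The promoter of Npc2, a lysosomal cholesterol carrier, was Fos-only with 57, and in BALB/cJ it held an ATF3 peak as well. The Srebf2 promoter held an ATF3-only locus with a count of 96 at -338 bp and a Fos-only locus with 32 at -25 bp. In BALB/cJ an ATF3 peak lay on the Fos-only locus too. In all lists, 54 ATF3-only loci lay within 1 kb of the protein-coding TSS of 48 genes and 11 Fos-only loci within 1 kb of that of 10 genes. Over all loci and counting a TSS of any kind, 3510 ATF3-only and 702 Fos-only loci did (23.2% and 25.2% of their classes), so the TSS sets of these counts differ.

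At shared loci the counts of ATF3 and Fos went together. Spearman's rank correlation was 0.738 over the 21576 loci, as a description, since all values come from the same 2 lists and share chromatin and base composition. Fos was more closely ranked with FosL2 (0.852 over 9167 loci), JunD (0.823 over 21117) and JunB (0.814 over 12130) than with ATF3, and ATF3 was more closely ranked with JunD (0.868 over 27459) and Jun (0.813 over 16547). Over the 5854 shared loci with peaks of all 6 AP-1 proteins, ATF3 and Fos had a rank correlation of 0.685. There ATF3 had 0.856 with JunD and 0.830 with Jun, and Fos had 0.838 with FosL2 and 0.820 with JunB. PU.1 and CEBPα counts were weakly related to ATF3 (0.204 and 0.338) and to Fos (0.176 and 0.239). Shared loci with a TRE had a rank correlation of 0.819 for ATF3 and Fos and those without one 0.680.

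**Figure D4:**
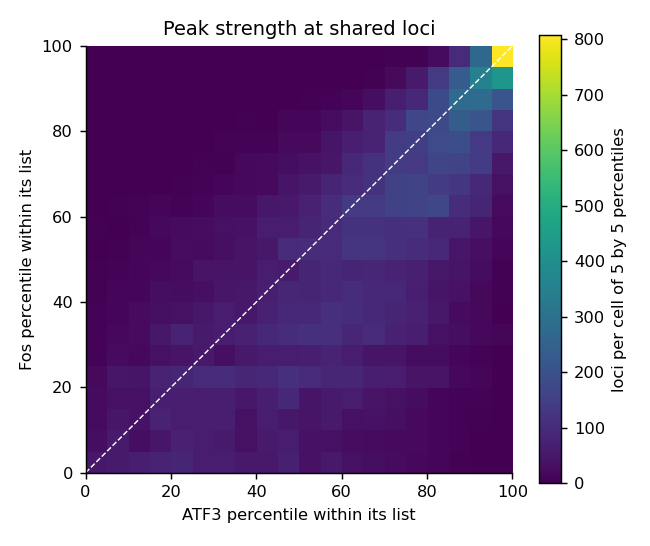
Number of shared loci (colour) by the percentile of the ATF3 count within the ATF3 list (x) and of the Fos count within the Fos list (y), in cells of 5 by 5 percentiles, with equal percentiles dashed. The rank correlation was 0.738 over 21576 loci, and more loci lie below the dashed line than above it (median difference 7.40 percentiles toward ATF3).

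Shared loci that ranked differently in the lists differed in several features. The percentile of ATF3 exceeded that of Fos by over 25 at 4627 shared loci (21.5%), the reverse held at 661 (3.06%), and 75.5% lay within 25. The ATF3 list is longer, which places shared loci higher in it. Loci toward ATF3 held a CEBPα peak at 44.9% and those toward Fos at 12.0%, a difference of 33.0 points (29.9 to 35.7). The TRE was in 23.3% and 49.8% (-26.5 points, -30.5 to -22.5), and the composite in 3.55% and 0.151% (3.39 points, 2.54 to 3.98). The Jun share was 62.6% and 39.9% (22.7 points, 18.6 to 26.6) and the JunB share 38.4% and 45.2% (-6.81 points, -10.9 to -2.80). PU.1 peaks lay on 58.2% and 48.4% (9.77 points, 5.70 to 13.8) and JunD peaks on 93.4% and 85.2% (8.26 points, 5.64 to 11.3). The intervals for FosL2 (-3.72 to 3.58 points) and the NFκB site (-1.11 to 1.41 points) ran on both sides of 0. ATF3 Veh peaks, which are not independent of the ATF3 ranks, lay on 68.9% and 22.1%. A TSS lay within 1 kb of 18.4% and 17.3%, with an interval of the difference from -2.15 to 4.02 points.

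Toward ATF3, the largest difference in rank at a shared locus was at Spi1. Its promoter (chr2:91096472-91096814) had an ATF3 count of 199 and a Fos count of 26, at percentiles 91.8 and 3.03. An intron of Cotl1, an actin-binding protein, had 199 and 27 and held a composite and an NFκB site. An intron of Htra1, a secreted protease, had 270 and 30. A locus near Dlgap2 had 175 and 24, and a locus 142424 bp from the TSS of Hrh4 had 186 and 25. Toward Fos, the promoter of Hmgcs1, an enzyme of cholesterol synthesis (chr13:119690016-119690265), had an ATF3 count of 34 and a Fos count of 62, at percentiles 2.05 and 63.1. Exons near Blm, a DNA helicase, in Dock10 and near Laptm4a had ATF3 counts of 34, 41 and 38 and Fos counts of 60, 69 and 63. The Hmgcs1 and Dock10 loci held no peak in either BALB/cJ list, whereas all 5 loci toward ATF3 held both.

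BALB/cJ macrophages gave a second pair of lists that the classes had not used. They are of the same proteins as the lists that set the classes and so are not fully independent of them. Of ATF3-only loci, 59.6% held a BALB/cJ ATF3 peak (58.8 to 60.4), as did 43.5% of Fos-only loci (41.6 to 45.3) and 88.4% of shared loci, beside 70.8% of all AP-1 loci. BALB/cJ Fos peaks lay on 59.3% of ATF3-only loci (58.5 to 60.0), on 61.9% of Fos-only loci (60.1 to 63.7) and on 93.0% of shared loci, beside 75.3% of all AP-1 loci. The Fos list was the longer one in BALB/cJ, with 40459 peaks against 36821 of ATF3. So the ATF3-only class of C57BL/6 mostly held Fos in BALB/cJ: 44.7% of its loci held both BALB/cJ peaks, 14.9% ATF3 alone, 14.6% Fos alone and 25.8% neither. Of Fos-only loci, 36.9% held both, 25.1% Fos alone, 6.62% ATF3 alone and 31.5% neither. Both classes thus gave more loci of their own kind than the other class did, with differences of 8.31 points (7.18 to 9.35) for ATF3 alone and -10.5 points (-12.2 to -8.79) for Fos alone.

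The loci that kept their class in both strains, 2260 for ATF3 and 697 for Fos, differed by the same motifs. The TRE was in 10.5% and 39.5% of them (-28.9 points, -32.8 to -25.1), the CRE in 7.35% and 0.144% (7.20 points, 6.00 to 8.36) and the composite in 6.55% and 0.430% (6.12 points, 4.86 to 7.25). CEBPα peaks lay on 20.2% and 8.18% (12.0 points, 9.22 to 14.5). ATF3 Veh peaks, which are not independent of the classes, lay on 44.8% and 13.3% (31.5 points, 28.1 to 34.6). JunB lay on 3.72% and 9.04% (-5.32 points, -7.78 to -3.23). PU.1 lay on 34.8% and 37.3% and a TSS within 1 kb of 28.9% and 28.1%, with intervals of the differences from -6.66 to 1.51 and from -3.13 to 4.51 points. Among the strongest of them were the promoters of the olfactory receptor gene Olfr433 and the histone gene Hist1h4i, ATF3-only with counts of 219 and 184, and a Fos-only locus at -16217 bp from the TSS of Runx1, a factor of blood lineages, with a count of 95 and a TRE.

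**Figure D5:**
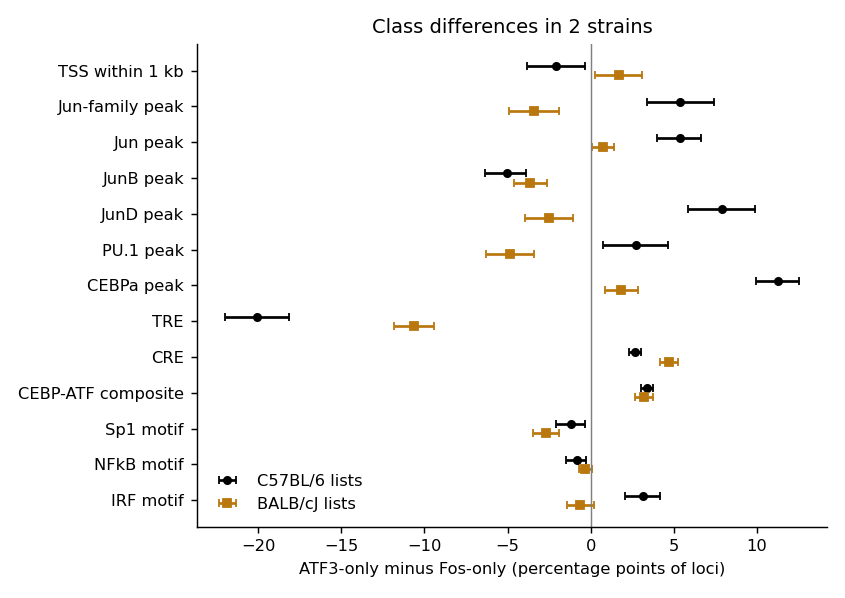
Difference in the share of loci with each feature, ATF3-only minus Fos-only (percentage points, 95% Newcombe intervals), for classes built from the C57BL/6 lists (circles) and from the BALB/cJ lists (squares). The TRE, the CRE, the composite, CEBPα and JunB lie on the same side of 0 in both strains, whereas the Jun family, JunD, PU.1, the TSS and the IRF site change side. PU.1 and CEBPα peaks were those of C57BL/6 for both.

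The ranks of the strains were compared over the 18593 shared loci with both BALB/cJ peaks. The rank correlation was 0.856 between the ATF3 counts of the strains and 0.833 between their Fos counts. It was 0.723 between ATF3 and Fos in C57BL/6 and 0.842 in BALB/cJ. The difference of the ATF3 and Fos percentiles had a rank correlation of 0.494 between the strains. These are descriptions over loci that share chromatin, and the lists of the strains were mapped to genomes of their own.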

How the data were processed

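The deposited peak lists were used as the authors made them. Per the study's methods, ChIP-seq reads were mapped with Bowtie2 to mm10 (for BALB/cJ to a genome of that strain, with positions then shifted to mm10), peaks were called with HOMER against input of the same treatment, and peaks with an IDR of 0.05 or more over replicates were removed. The deposited count of a peak is not scaled to depth, and how the counts of replicates were combined is not given in the sources used here. The deposited score is the scaled IDR. Library depth was not in the lists, so precision is given for counting over loci alone.

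Peaks overlapping by 1 bp or more were joined into loci. A partner peak had to overlap a locus by 1 bp, motifs were searched in the central 200 bp on both strands, and genes were assigned by the nearest protein-coding TSS of GENCODE. Sequence was missing for 4 loci. Percentiles are of the count within its own list, and equal lists were cut by count. Values within deciles of rank compared ATF3-only and Fos-only loci of the same decile of their lists, over all deciles that held both classes. Shares of a class with a feature by decile used deciles with at least 20 loci. Analyses used Python 3.11.15, pandas 2.3.3, numpy 2.4.6 and scipy 1.17.1, were tested on simulated data, and gave no p-values. Named loci were the 5 strongest or most different of each kind, the 5 genes with the most loci of each class and 8 gene lists. The members, lists and tests were chosen with earlier results of these data known. Alternatives were other overlap rules, list lengths, score limits, motif windows, TSS sets and partner lists. Input, PPARg and PPARg knockout samples and the remaining Veh lists were not used here. 1 of the named loci is not reported here.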

Additional observations from a re-analysis of the deposited data

Results flagged for a closer look

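Several differences between ATF3-only and Fos-only loci had the opposite sign when the classes were built from the BALB/cJ lists, and the difference between the strains was not tested. The share with a TSS within 1 kb differed by -2.06 points in C57BL/6 and 1.70 in BALB/cJ. The Jun-family share differed by 5.39 and -3.42 points, the JunD share by 7.89 and -2.52 and the PU.1 peak share by 2.72 and -4.87. The CEBP site differed by 1.73 and -0.467 points, the PU.1 site by 0.709 and -0.858 and the IRF site by 3.18 and -0.619. The ATF3 list was 1.51 times as long as the Fos list in C57BL/6 and 0.91 times as long in BALB/cJ, and the part of list length in these values was not tested.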

How the results depend on the processing

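No paired analysis was possible because each condition has 1 list and the labels carry no replicate numbers. Of 83 values recomputed under alternatives, 7 changed sign, 42 moved and 34 did not, where a share or difference moved if it left the 95% interval of its first value, a number of loci if it changed by over 1.5 times and a rank correlation if it changed by over 0.05. The CEBPα, TRE, composite and BALB/cJ ATF3 differences between ATF3-only and Fos-only loci kept their direction in all alternatives run for them. The cause of the changes was not tested.

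With peak centres within 100 bp, 86.1% of Fos peaks matched an ATF3 peak and 57.1% the reverse, and the differences were -0.607 points for the Jun family, -1.53 for PU.1, 6.49 for CEBPα, -17.1 for the TRE, 10.4 for BALB/cJ ATF3 and -5.76 for BALB/cJ Fos. With 50% reciprocal overlap, the shares were 86.7% and 57.5%. At equal list length there were 5971 ATF3-only and 5977 Fos-only loci, shares of 75.47% and 75.49%, and differences of 0.391 for promoters, 14.6 for the Jun family, 18.5 for CEBPα, -22.8 for the TRE, 4.66 for the composite, 26.9 for BALB/cJ ATF3 and 4.83 for BALB/cJ Fos. With the strongest 50% of each list, there were 10918 shared, 7447 ATF3-only and 1260 Fos-only loci, shares of 89.7% and 59.5%, a rank correlation of 0.639, and differences of 1.41 for the Jun family, 23.9 for CEBPα, -26.4 for the TRE, 4.37 for the composite, 11.4 for BALB/cJ ATF3 and 1.34 for BALB/cJ Fos. With a scaled IDR of 830 or more, there were 1335 Fos-only loci, shares of 92.2% and 55.4%, and differences of 2.66 for the Jun family and 15.9 for CEBPα. Within deciles of rank, the differences were -2.93 for the Jun family, 0.553 for PU.1, 8.05 for CEBPα, 2.99 for the composite, 8.52 for BALB/cJ ATF3 and -8.51 for BALB/cJ Fos. With partner lists of equal length, they were -1.67 for the Jun family and 0.250 for PU.1, and with BALB/cJ lists of equal length -4.73 for BALB/cJ Fos. In the central 100 bp, they were -16.7 for the TRE and 2.77 for the composite.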
